A study of Mus musculus with 10 samples.

Results

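The cytosolic ribosomal protein genes were taken from the count table by symbol: every row named Rpl or Rps with a number and an optional suffix, Rplp0 to Rplp2, or Rpsa, apart from Rpl3 and Rpl3l. The rule finds 87 of 20692 gene rows, which carry 81 different symbols, and 80 of the 87 had enough counts to be tested. The libraries are polyadenylated RNA from the ventricular apex of FVB/NJ mice, an inbred strain, 9 weeks old and all labelled female. Of the 10 libraries, 5 are sham controls and 5 come from mice 1 week after an operation, transverse aortic constriction (TAC), which narrows the aortic arch and so loads the left ventricle. All mice were wild type, and neither group carried a transgene. The comparison asks how the mRNA of these genes differs after 1 week of pressure overload.

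A cytosolic ribosome has a small subunit, which reads the mRNA, and a large subunit, which joins amino acids. Most ribosomal proteins are present in equal number, apart from the stalk proteins Rplp1 and Rplp2, of which a ribosome holds more copies. Their mRNAs typically begin with a tract of C and T bases, the terminal oligopyrimidine (TOP) motif, through which mTORC1 signalling sets how well they are translated. In a heart under load, growth of cardiomyocytes needs more protein synthesis, which can come from more ribosomes or from more work per ribosome, and neither can be read from mRNA levels alone.

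The C/T tract at the start is shown for 4 genes, since it is the sequence feature these mRNAs are known for. They are both called genes that have an entry in the promoter table (Rps21 and Rps6), a stalk gene (Rplp2) and the member with the longest run (Rpl35). Each line gives 50 bases before and 20 after an annotated start, 5′ to 3′, from RefSeq (GRCm38.p6), and capitals mark the longest unbroken run of C or T within 10 bases of that start. Where a gene has several starts, the one with the longest run is printed.
Rps21, chr2:180257329-180257398, plus strand: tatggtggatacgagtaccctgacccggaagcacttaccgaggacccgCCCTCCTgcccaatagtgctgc
Rps6, chr4:86857348-86857417, minus strand: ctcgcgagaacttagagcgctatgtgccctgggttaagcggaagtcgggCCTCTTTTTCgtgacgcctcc
Rplp2, chr7:141447601-141447670, plus strand: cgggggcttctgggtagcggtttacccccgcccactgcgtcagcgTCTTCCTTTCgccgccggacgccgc
Rpl35, chr2:39005112-39005181, minus strand: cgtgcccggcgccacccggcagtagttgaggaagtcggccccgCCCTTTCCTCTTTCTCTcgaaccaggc
Within those 10 bases on each side, the runs are 7 bases in Rps21, 10 in Rps6, 10 in Rplp2 and 17 in Rpl35. The Rpl35 run reaches the edge of that window and goes on beyond it. Of the 75 tested rows whose ID keeps its symbol, 56 matched the promoter table. A run of 6 or more was found within 10 bases of a start in 30 of these 56 (53.6%), against 23.0% of the 27025 genes in the table. Annotated starts can lie some bases away from the true one. Within 50 bases the shares were 98.2% and 71.4%, and the median longest run was 11 bases in the ribosomal protein genes and 7 in all genes.

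Each library holds 7410967 to 10126574 counts, and tested member rows range from 6 to 8483 counts in a library. Levels are given as CPM, which are counts set to an equal library size with TMM factors, and fold changes are log2 of TAC over sham ± standard error (SE). The adjusted p-values are edgeR quasi-likelihood values, corrected by Benjamini-Hochberg over 12001 genes. The replicates are taken as separate animals because the design text counts mice. The library labelled TAC replicate 1 does not match its female label: it has 14 Xist counts where the other 9 have at least 1042, and 155 Ddx3y counts where the others have 0. Markers of some cell types moved with the groups. Summed levels of endothelial, smooth muscle and pericyte, erythroid, lymphocyte, neutrophil and adipocyte markers overlapped between the groups. The summed level of 8 fibroblast markers was 939 to 1412 CPM in sham and 2993 to 8656 in TAC, with TAC replicate 1 highest and the others at most 3587. That of 8 macrophage markers was 194 to 236 against 311 to 514, that of 7 markers of dividing cells 4.38 to 14.6 against 49.0 to 111, and that of 8 cardiomyocyte markers 94715 to 113216 against 68844 to 92481. That of 5 atrial cardiomyocyte markers was 96.5 to 192 against 510 to 1240, nearly all of it from a single marker. The part of these shifts in the results below was not tested, and in bulk RNA a change in the number of cells of a type and a change in RNA per cell cannot be told apart.

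On TMM-scaled sizes, few ribosomal protein genes differed between the groups. Of the 80 tested rows, 1 was called higher in TAC and 5 lower (7.50%), where 35.8% of all tested genes were called (18.8% higher and 17.0% lower). The counts depended on the scaling: library totals gave 22 higher (27.5%, against 27.1% of all genes) and 0 lower (9.69% of all genes), and an offset for gene length and GC content gave 15 higher (18.8%, against 18.0%) and 0 lower (17.6% of all genes). An unadjusted p under 0.05 was reached by 10 of the 80, against 44.7% of all genes. Without TAC replicate 1 the counts were 0 higher and 4 lower. The higher call, the Rps4y2 row, was also absent without any of sham replicates 2, 3, 4 and 5 and TAC replicates 3 and 5. Rpl12 was called higher without TAC replicate 4, beside the Rps4y2 row, and without TAC replicate 5. Lower calls numbered 3 without sham replicate 2, 4 or 5 or TAC replicate 4 or 5. No row had all TAC libraries above all sham libraries, and 3 had all below, against a background of 23.7% of genes without overlap in either direction. The median log2 fold change was 0.00 in the ribosomal protein rows (middle 50% from -0.06 to 0.07, extremes -0.25 and 0.34) and 0.00 over all genes (middle 50% from -0.18 to 0.23, extremes -1.95 and 4.04). The fold changes of the ribosomal protein rows lie close together around that of the typical gene.

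**Figure D1:**
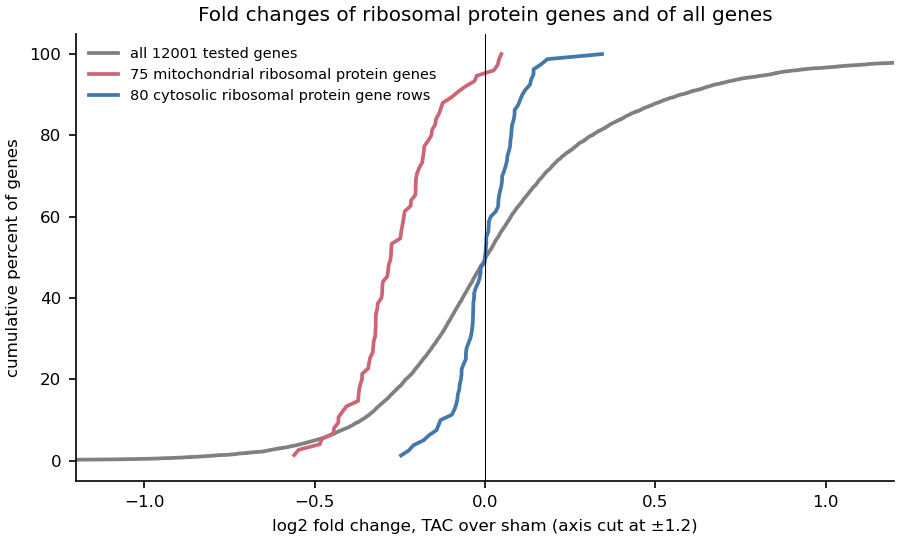
Cumulative percent of genes (y axis) at or below each log2 fold change of TAC over sham (x axis, shown from -1.2 to 1.2) for all 12001 tested genes, 75 mitochondrial ribosomal protein genes and the 80 cytosolic rows. The cytosolic curve is steep and centred at 0.00, and the mitochondrial curve is centred at -0.28.

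On TMM-scaled sizes, precision was enough to bound most changes. The intervals do not cover the choice of scaling or the stated alignment software, which differs between the groups. With library totals the median change of these rows was 0.11. In 62 of 80 rows (77.5%) the fitted log2 fold change lay within 0.1 of 0, against 27.8% of all genes. The 95% interval lay wholly within 0.3 of 0 in 72 rows (90.0%), against 25.9% of all genes, and its median distance from the estimate to either end was 0.12 (0.22 over all genes). A p that misses the threshold does not show equal levels. Mitochondrial ribosomal protein genes serve the separate ribosome of that organelle. Among them, 0 of 75 were called higher and 51 lower (68.0%, against 35.8% of all genes), with a median of -0.28. That difference between the families was not tested.

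**Figure D2:**
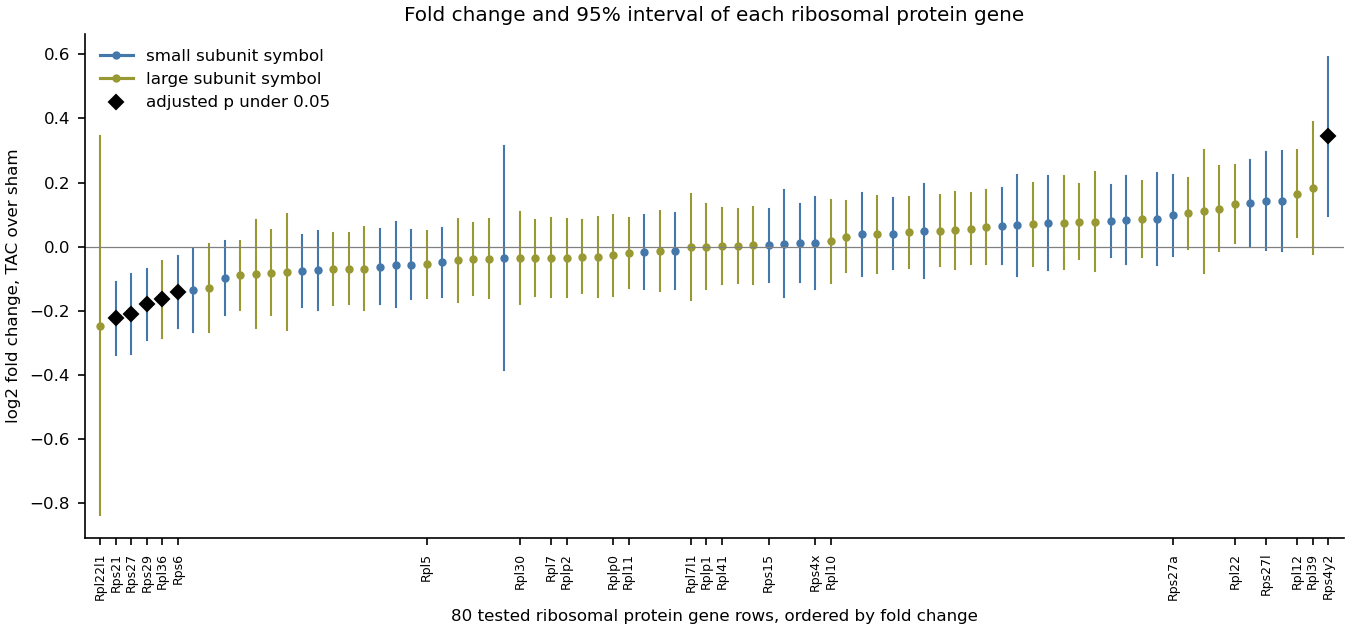
Log2 fold change of TAC over sham (y axis) with its 95% interval (vertical lines) for the 80 tested rows, ordered by fold change (x axis, symbols given for 24 of them). Black diamonds are the 6 rows with an adjusted p under 0.05, and the interval of Rpl22l1 is the widest.

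Identity limits what some rows can say. By Ensembl ID, 6 tested rows have another name in the GENCODE M21 annotation than in the table. Rps3a is there Rps3a1, which only adds a number, and is counted below as keeping its symbol. The 5 rows called Rps27, Rps13, Rps4y2, Rpl24 and Rpl41 in the table are there Rps27rt, Rps13-ps2, Rps4l, Zbtb11 and Gm10076. Rps13-ps2 and Rps4l are typed as processed pseudogenes, intronless copies of an mRNA, and Gm10076 as a long intergenic non-coding RNA. The M21 genes named Rps27, Rps13, Rpl24 and Rpl41 have no row in the table used here. Among the 75 rows that keep their symbol, 0 were called higher and 4 lower (5.33%, against 35.8% of all genes). The 7 untested rows are Rpl39l with at most 1 count in a library, a Rps13 row with 4 to 12, a Rpl29 row with at most 2, and a Rpl30 row and 3 Rpl41 rows at 0 throughout.

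In the small subunit, 1 of 33 tested rows was called higher and 4 lower (15.2%, against 35.8% of all genes). The median log2 fold change was 0.01. Rps21 (ENSMUSG00000039001, GRCm38 chr2:180257377-180258445, plus strand), a small protein of the 40S subunit, had 210, 199, 202, 221 and 203 CPM in sham and 166, 171, 185, 177 and 187 in TAC. Every TAC library lies below every sham library. The means were 207 ± 9.02 and 177 ± 9.15 CPM (SD, n = 5 each), and Rps21 fell by 0.22 ± 0.05 on the log2 scale (edgeR adjusted p = 0.00571).

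Rps29 (ENSMUSG00000034892, chr12:69157722-69159186, minus strand), a zinc-binding protein of the 40S head, had 388, 356, 376, 382 and 356 CPM in sham and 337, 328, 347, 312 and 317 in TAC. These groups do not overlap either. The change was -0.18 ± 0.05 (edgeR adjusted p = 0.0154). The row named Rps27 (ENSMUSG00000050621, chr9:114982366-114982739, minus strand, Rps27rt in M21) had 137, 137, 129, 133 and 123 CPM in sham and 119, 115, 123, 103 and 111 in TAC. Here TAC replicate 3 and sham replicate 5 lie at the same rounded level, and the groups just fail to overlap. The row fell by 0.21 ± 0.06 (edgeR adjusted p = 0.0133), and 91.1% of its 50-base windows also occur in transcripts of other genes.

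Rps6, the 40S protein that S6 kinases phosphorylate downstream of mTORC1 (ENSMUSG00000028495, chr4:86854660-86857412, minus strand), had 83.7, 86.7, 89.3, 88.1 and 90.2 CPM in sham and 80.3, 84.8, 74.6, 75.8 and 81.4 in TAC. Only TAC replicate 2 reaches into the sham range. Its change of -0.14 ± 0.05 is the weakest call (edgeR adjusted p = 0.0482). It was lost in 13 of 18 alternative settings, among them each of leaving out sham replicates 2, 3, 4 and 5 and TAC replicates 1, 3, 4 and 5. Calls of Rps21, Rps29 and the Rps27 row held in all 10 settings that leave out 1 library. They ended with library totals in place of TMM and with an offset for gene length and GC content, where the changes of Rps29 and the Rps27 row were 0.01 and 0.00.

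The only row called higher was Rps4y2 (ENSMUSG00000063171, chr6:148354656-148355598, plus strand, Rps4l in M21), an autosomal copy of the X-linked gene Rps4x. It had 7.01, 5.85, 5.67, 5.14 and 5.94 CPM in sham and 8.31, 6.79, 7.34, 7.30 and 7.89 in TAC. Sham replicate 1 lies above TAC replicate 2, so the groups overlap. The change was 0.34 ± 0.12 (edgeR adjusted p = 0.0331), and the call was lost in 9 of 18 alternatives, including DESeq2 and leaving out sham replicates 2, 3, 4 or 5 or TAC replicates 1, 3 or 5. Rps4x itself, at 188 ± 14.6 CPM in sham and 190 ± 12.5 in TAC, had a change of 0.01 ± 0.07 (edgeR adjusted p = 0.912). In the Rps4y2 row, 14.9% of the 50-base windows also occur in transcripts of 1 other annotated gene, typed as a pseudogene. In Rps4x the share is 72.2%. How the counting treated reads shared between copies is not given in the sources used here and was not tested, so these rows are uncertain.

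**Figure D3:**
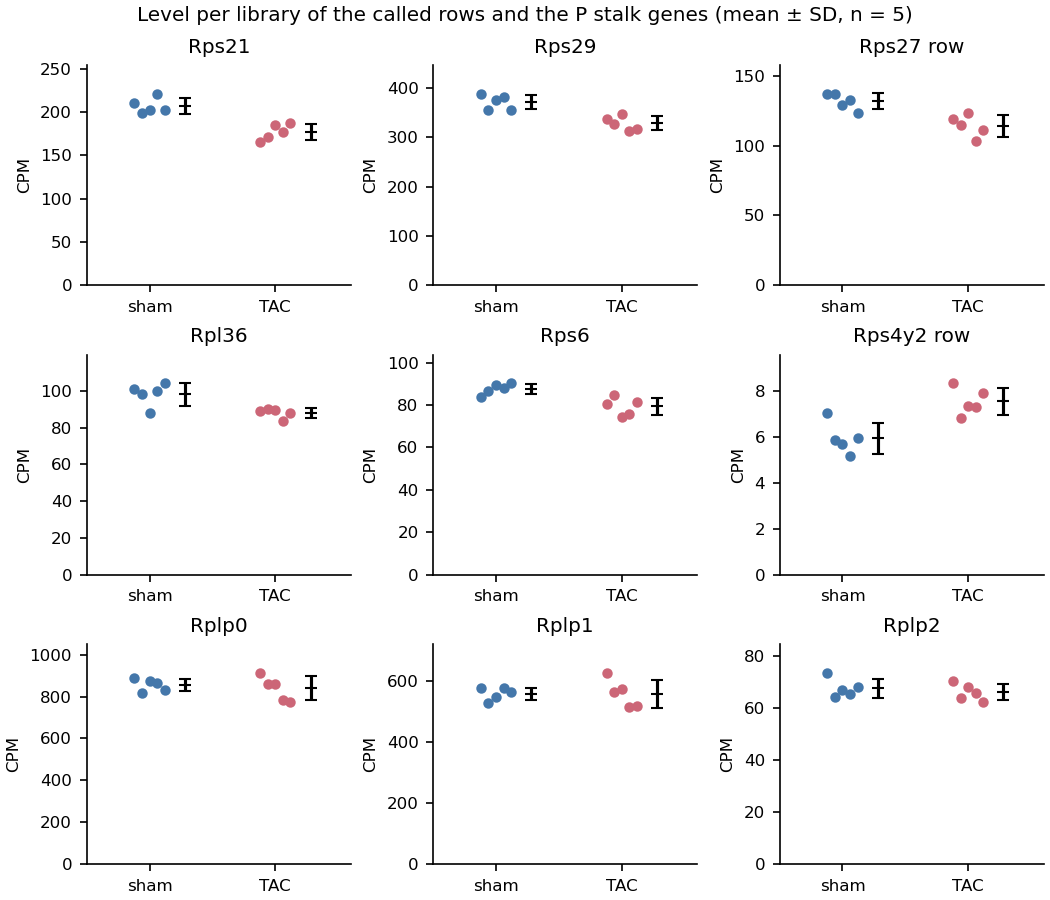
CPM in each library (points, y axis from 0) in sham and TAC for the 6 called rows and the 3 stalk genes, with the mean and SD of 5 libraries in black. Rps21 and Rps29 separate fully, the Rps27 row nearly touches, Rpl36, Rps6 and the Rps4y2 row overlap, and the stalk genes overlap.

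Rps27a encodes ubiquitin fused to a 40S protein. It had 92.4, 92.2, 94.9, 96.4 and 87.0 CPM in sham and 100, 100, 110, 93.3 and 91.9 in TAC, so 3 TAC libraries exceed the sham range. The change was 0.10 ± 0.06 (edgeR adjusted p = 0.216). Rps27l, the paralogue of Rps27 that p53 is known to induce, had 27.9 ± 2.07 CPM in sham and 30.8 ± 2.05 in TAC (change 0.14 ± 0.07, edgeR adjusted p = 0.134). Rps15, a protein of the 40S head which ranks high per length of exon union, had a change of 0.00 ± 0.05 with a 95% interval from -0.11 to 0.12.

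In the large subunit, 0 of 47 tested rows were called higher and 1 lower (2.13%, against 35.8% of all genes). The median log2 fold change was 0.00. Rpl36 (ENSMUSG00000057863, chr17:56613416-56614243, plus strand) had 101, 98.4, 87.7, 100 and 104 CPM in sham and 88.9, 90.0, 89.8, 83.3 and 87.7 in TAC. Sham replicate 3 lies within the TAC range and the other 4 sham libraries lie above it. The change of -0.16 ± 0.06 passed (edgeR adjusted p = 0.0353) and was lost in 12 of 18 alternatives, 7 of them leaving out 1 library (sham replicates 1, 2, 4 or 5, or TAC replicates 3, 4 or 5). Rpl36 and Rps6 are the members just inside the threshold, and Rpl12 and Rpl22 those just outside.

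Rpl12, which sits at the base of the stalk, had 167, 163, 172, 173 and 161 CPM in sham and 204, 200, 196, 172 and 167 in TAC. TAC replicates 1, 2 and 3 lie above all sham libraries while replicates 4 and 5 lie among them. The change of 0.17 ± 0.06 did not pass (edgeR adjusted p = 0.0567). It passed without TAC replicate 4 or 5 and with library totals (edgeR adjusted p = 0.0336, 0.0210 and 0.00573). Rpl22 had 111 ± 5.55 CPM in sham and 121 ± 7.36 in TAC, a change of 0.13 ± 0.06 (edgeR adjusted p = 0.0860), which passed with library totals and with the length and GC offset.

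The P stalk, which recruits the elongation factors, had no call. Rplp0 had 888, 819, 873, 865 and 831 CPM in sham and 913, 861, 862, 785 and 776 in TAC. Rplp1 had 577, 530, 550, 577 and 566 in sham and 628, 564, 574, 516 and 519 in TAC. In both genes TAC replicate 1 is highest and replicates 4 and 5 lowest of all 10 libraries. The changes were -0.03 ± 0.06 for Rplp0, 0.00 ± 0.06 for Rplp1 and -0.03 ± 0.06 for Rplp2, with edgeR adjusted p-values of 0.757, 0.998 and 0.677. Their 95% intervals lay between -0.16 and 0.13.

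Rpl5 and Rpl11 bind the 5S RNA and, outside the ribosome, the p53 regulator Mdm2. Rpl5 had 219 ± 6.06 CPM in sham and 211 ± 9.40 in TAC, and Rpl11 had 264 ± 5.10 and 261 ± 14.1. Neither difference passed (edgeR adjusted p = 0.415 and 0.794). Rpl10, a late-joining protein near the catalytic centre, had a change of 0.02 ± 0.06 (edgeR adjusted p = 0.853).

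Paralogues differed widely in level. Per kilobase of annotated exon, Rpl22 had 38.1 ± 1.90 CPM in sham and its paralogue Rpl22l1 0.641 ± 0.0967. At that low level Rpl22l1 had a change of -0.25 with a 95% interval from -0.84 to 0.34, so changes of either sign remain within its error. Rpl7 had 71.0 CPM per kilobase and Rpl7l1, its paralogue, 9.67 ± 0.672. Their changes were -0.03 ± 0.06 and 0.00 ± 0.08. Rpl39 had a change of 0.18 ± 0.09 (edgeR adjusted p = 0.153), while Rpl39l, known from testis, was not tested. Rpl10l is not analysed here.

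Levels per kilobase covered a wide range although most of the proteins are built into the ribosome in equal number. On the exon union, the 75 rows that keep their symbol had a median of 89.1 CPM per kilobase in sham. The highest were Rplp1 at 1123 ± 40.6, Rps15 at 615 ± 18.1 and Rps29 at 536 ± 21.7, followed by Rplp0 at 515 ± 17.5. The order of Rps29 and Rplp0 depended on the length used. Per kilobase of the median-length coding transcript they had 953 and 1001 CPM in sham. Among all tested rows, Gm10076 (the Rpl41 row) came next after Rplp1 with 1029 ± 10.3. The lowest were Rpl22l1, the Rps4y2 row at 6.28 ± 0.725 and Rpl30 at 7.78 ± 0.381. Length matters for such values: with the median-length coding transcript of each gene the median was 239, and Rpl30 had 41.2.

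Near copies were common. Among the 75 rows, the median share of 50-base windows found in transcripts of other annotated genes was 38.3%, and it reached 95.1% in Rpl35. A member shared windows with a median of 9 pseudogenes and at most 121 (Rpl7a). Across the 75 genes, which are not independent, the Spearman correlation of shared windows with the level per kilobase of median-length transcript was -0.02 and with the log2 fold change -0.01. Shared windows and change therefore did not order the genes alike. The 45 rows with a ribosomal protein pseudogene symbol summed to 680 ± 82.8 raw counts in sham and 620 ± 46.1 in TAC, most of them in Rps2-ps6. These sums are not scaled to library size, and the groups differ in depth. Library totals were 8100749 to 10126574 counts in sham and 7410967 to 9406094 in TAC.

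As a set, the ribosomal protein rows took 1.44, 1.48, 1.45, 1.46 and 1.44% of all counts in sham and 1.67, 1.53, 1.65, 1.42 and 1.52% in TAC. The means were 1.45 ± 0.0158% and 1.56 ± 0.101%, and TAC replicate 4 lies below the sham range while the other 4 lie above it. On TMM-scaled sizes the summed level was 15054 ± 253 CPM in sham and 15027 ± 786 in TAC, a difference much smaller than either SD. The 20 genes of highest mean count took 21.6 to 23.3% of sham counts and 18.0 to 21.1% of TAC counts. With those genes left out of the totals, the difference in share was 0.0721 percentage points in place of 0.107. Counts of large over small subunit rows were 1.41 ± 0.00718 in sham and 1.43 ± 0.0178 in TAC, with overlapping ranges of 1.40 to 1.42 and 1.41 to 1.45.

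The TAC libraries differed among themselves more than the sham libraries did. Against the sham mean, the median log2 deviation of the 80 rows was 0.06, 0.05 and 0.08 in TAC replicates 1, 2 and 3 and -0.12 and -0.04 in replicates 4 and 5, while the sham libraries lay between -0.03 and 0.03. In these 5 TAC libraries 52, 57, 62, 12 and 19 rows stood above the sham mean. In TAC replicate 1 the rows went both ways, with the middle 50% between -0.09 and 0.13, and in TAC replicate 4 that range lay wholly below 0, from -0.16 to -0.04. The SD of log2 CPM was larger in TAC than in sham in 68 of 80 rows (85.0%), against 58.0% of all genes. Without TAC replicate 1 it was larger in 66 rows (82.5%), against 47.9% of all genes. Its median was 0.06 in sham and 0.09 in TAC. The 80 rows of a library are not independent, so these counts describe the set and are not 80 separate observations.

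**Figure D4:**
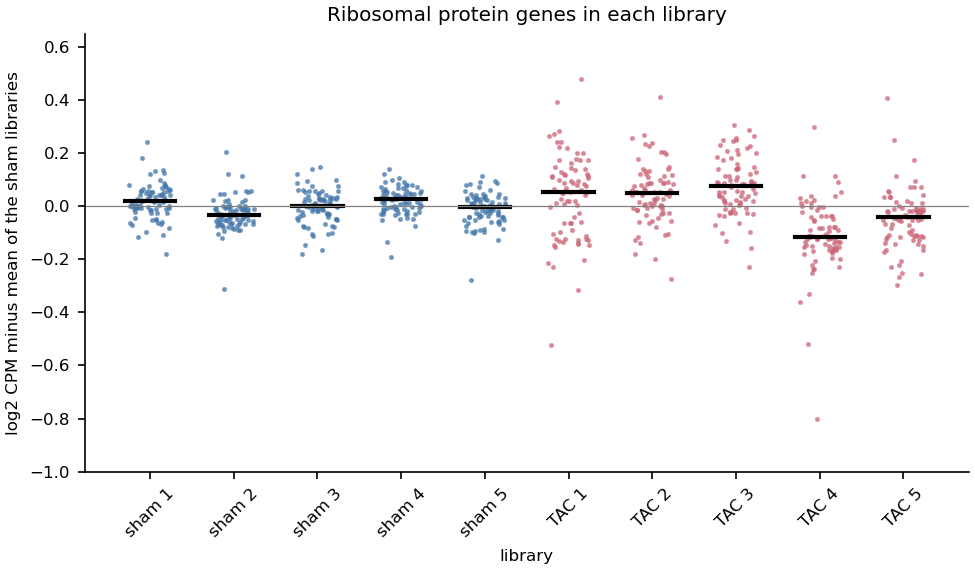
Log2 CPM minus the mean of the sham libraries (y axis) for the 80 tested rows (points) in each of the 10 libraries (x axis, group and replicate), with the median as a black bar. TAC replicates 1 to 3 have medians of 0.05 to 0.08, and TAC replicates 4 and 5 have -0.12 and -0.04.

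The scaling also set where the medians lay. When library totals replaced the TMM sizes and 22 rows were called higher, the median change of all genes was 0.11, the same value as in the ribosomal protein rows. With the length and GC offset, the medians were 0.05 in the ribosomal protein rows and 0.00 in all genes. The shares of higher calls lie near the background under both settings. Of the 15 rows called higher with the offset, 14 were also among the 22, including Rpl22, Rpl39, Rps27a and Rps27l. The stated alignment software also differs between sham and TAC libraries, and this difference and the operation cannot be told apart.

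**Figure D5:**
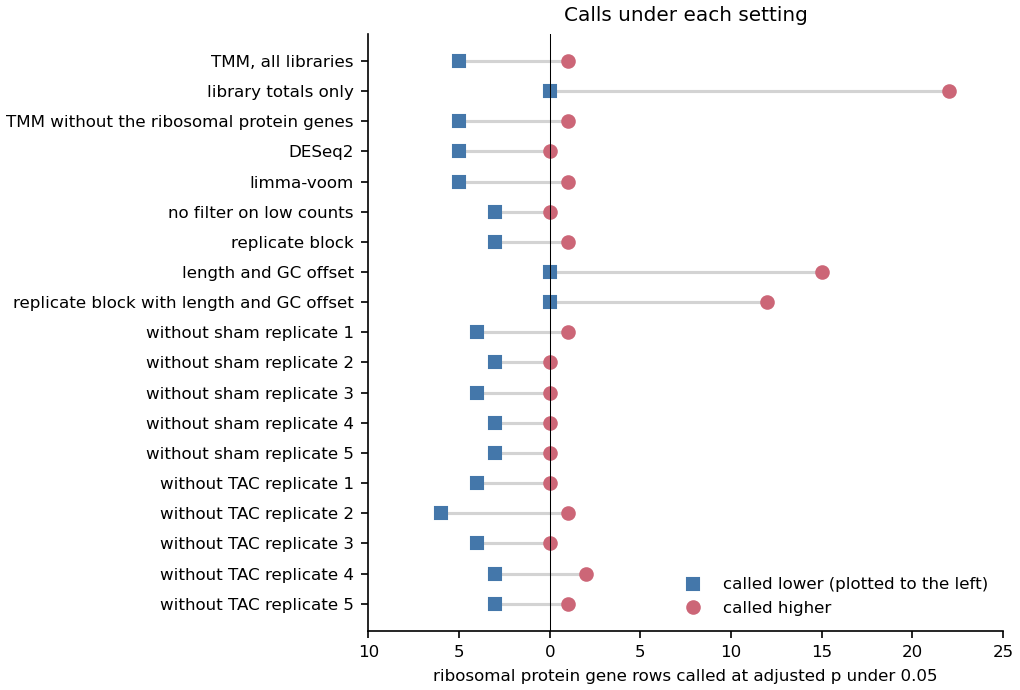
Number of ribosomal protein rows called lower (squares, left of 0) and higher (circles, right of 0) at an adjusted p under 0.05 under each setting (y axis). Library totals and both settings with the length and GC offset give 22, 15 and 12 higher calls and 0 lower calls, and every other setting gives 0 to 2 higher and 3 to 6 lower.

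The ribosome components that the symbol rule does not take had no call among 4 tested genes. They include Fau, which encodes a 40S protein fused to a ubiquitin-like protein, Gnb2l1 (Rack1), the 40S scaffold, and Rpl36al. Gnb2l1 had 322 ± 8.21 CPM in sham and 344 ± 19.9 in TAC (edgeR adjusted p = 0.187), and the changes of Fau and Rpl36al were 0.07 and -0.05. The absence of a call for Gnb2l1 and Fau depended on the setting, since each reached an adjusted p under 0.05 among the 18 alternatives.

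Among 17 elongation factors and other TOP mRNAs, 4 were called higher and 3 lower (41.2%, against 35.8% of all genes), with a median of 0.01. Pabpc1, the cytoplasmic poly(A)-binding protein, rose from 161 ± 6.48 to 255 ± 23.6 CPM, a change of 0.66 ± 0.07 (edgeR adjusted p = 3.25e-05). Eef1a1, the factor that brings aminoacyl-tRNA to the ribosome, rose from 629 ± 15.3 to 950 ± 117 CPM (0.59 ± 0.08, edgeR adjusted p = 1.36e-04). Both had every TAC library above every sham library. Naca, the alpha subunit of the nascent chain complex, fell by 0.37 ± 0.08 and Eef1d by 0.16 ± 0.05 (edgeR adjusted p = 0.00292 and 0.0163), though Eef1d was not called with library totals.

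Of 74 tested ribosome biogenesis factors, 11 were called higher and 5 lower (21.6%, against 35.8% of all genes), with a median of 0.03. Library totals gave 23 higher and 1 lower, and under that setting 27.1% of all genes were called higher and 9.69% lower. Rrp12, an export factor of pre-40S particles, rose by 0.69 ± 0.12, Grwd1 by 0.34 ± 0.08 and the nucleolar protein Npm1 by 0.21 ± 0.05. Emg1, a methyltransferase for 18S RNA, fell by 0.30 ± 0.05. The edgeR adjusted p-values of these 4 were at most 0.00640. The count of higher calls was 7, 6 and 7 without sham replicate 3, sham replicate 5 and TAC replicate 2, and that of lower calls was 2 or 3 without any 1 library except sham replicate 5 and TAC replicate 4.

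RNA polymerase I, which makes the large ribosomal RNAs, had 2 of 14 genes called higher and 2 lower (28.6%, against 35.8% of all genes). Its largest subunit Polr1a fell by 0.31 ± 0.06 (edgeR adjusted p = 0.00230) and the initiation factor Rrn3 by 0.18 ± 0.05 (edgeR adjusted p = 0.0211). The factor Ubtf rose by 0.16 ± 0.05 and the terminator Ttf1 by 0.30 ± 0.10 (edgeR adjusted p = 0.0298 and 0.0336). The call of Rrn3 ended with library totals and with the replicate block plus length and GC offset. That of Ubtf was lost in 9 of 18 alternatives, among them leaving out sham replicate 2, 3 or 5 or TAC replicate 3 or 5. That of Ttf1 was lost in 8 of 18, among them leaving out sham replicate 1, 3 or 5 or TAC replicate 1, 3 or 5. In mTORC1 and S6 kinase signalling, 3 of 16 were called higher and 4 lower (43.8%, against 35.8% of all genes). The kinase Rps6ka1 rose by 0.47 ± 0.11 and Eif4ebp1, the translation repressor that mTORC1 switches off, by 0.49 ± 0.12, while Mtor fell by 0.23 ± 0.06 and its inhibitor Tsc2 by 0.22 ± 0.05 (edgeR adjusted p at most 0.00964). The calls of Mtor and Tsc2 ended with library totals. The S6 kinase genes Rps6kb1 and Rps6kb2 of the same list had changes of 0.00 ± 0.08 and 0.05 ± 0.07. Neither passed (edgeR adjusted p = 0.995 and 0.603).

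Among 11 ribosome rescue, recycling and storage factors, 1 was called higher and 3 lower (36.4%, against 35.8% of all genes). Ifrd2, which binds idle ribosomes, fell by 0.21 ± 0.06, the rescue factor Hbs1l by 0.20 ± 0.06 and Gtpbp1 by 0.21 ± 0.07, while Zfp598, the ubiquitin ligase that senses collided ribosomes, rose by 0.20 ± 0.06. The edgeR adjusted p-values lay between 0.0203 and 0.0323. These are weak calls: that of Ifrd2 ended without sham replicate 4, that of Hbs1l without sham replicate 2 or 4 or TAC replicate 1 or 3, that of Zfp598 without sham replicate 3, 4 or 5 or TAC replicate 2 or 3, and that of Gtpbp1 without sham replicate 3, 4 or 5 or TAC replicate 1, 2 or 3. With library totals the calls of Ifrd2, Hbs1l and Gtpbp1 ended. With the length and GC offset, with or without the replicate block, that of Zfp598 ended.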

How the data were processed

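The authors deposited raw read counts, 1 row per Ensembl gene and 1 column per library, with no normalization. Per the labels' protocols, the libraries were single-end and not strand-specific. The submitters' processing notes list HTSeq for both groups, Bowtie2, TopHat2 2.0.10 and mm10 for sham, and Bowtie, TopHat 1.3.0, mm9 and mm10 for TAC. Counting settings: not given in the sources used here. TAC is named in the titles, and sham comes from the design text. A row of column totals was left out.

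The fit used R 4.3.3 with edgeR 4.0.16 and limma 3.58.1: quasi-likelihood F tests, TMM, filterByExpr at a minimum count of 10 and total of 15, a trended dispersion, a model of group alone, Benjamini-Hochberg adjustment at 0.05 over all tested genes, and 95% intervals from the fit. log2 CPM used a prior count of 2. The method was tested on simulated data. The chi-square per gene between libraries of a group was 2.68 or more in all 20 pairs, so none was treated as a repeat.

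GENCODE M21 (GRCm38) gave length, GC content, positions and names by Ensembl ID, with 94.6% of IDs matched. The ID column's header names another build, so positions are those of the annotation. Shared 50-base windows were counted against annotated transcripts, since no genome was used here. Promoters come from RefSeq.

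The members and gene lists were chosen with earlier results of these data known. Named genes are the members with a fixed role or paralogue, all called members, those nearest the threshold on each side, the 3 highest and 3 lowest per length, and up to 4 genes per pathway list with the smallest adjusted p. A few genes are not reported here by name but stay in all counts. Rpl35, Rpl7a, Rps6kb1 and Rps6kb2 were named after their values were seen. Alternatives were library totals, TMM without the members, DESeq2 1.42.0, limma-voom, no filter, a replicate block, a length and GC offset, and leaving out each library.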

Additional observations from a re-analysis of the deposited data

How the results depend on the processing

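Depth and the number of animals limit the weakest rows: Rpl22l1 lies near 1 CPM and was not tested without sham replicate 1. The count of ribosomal protein rows called higher, 1, was 22 with library totals, 0 with DESeq2, 0 with no filter on low counts, 15 with the length and GC offset and 12 with that offset and the replicate block. The count called lower, 5, was 0 with library totals, 3 with no filter, 0 with the offset and 0 with the offset and the block. Leaving out 1 library gave 0 to 2 higher and 3 to 6 lower calls. Their median change was 0.11 with library totals. Over all genes, 1163 were called lower and 3252 higher with library totals, where TMM gave 2040 and 2252. Biogenesis factors had 23 higher and 1 lower with library totals, 3 lower with DESeq2, and 6 to 11 higher and 2 to 5 lower without 1 library. The median level per kilobase, 89.1, was 151 with the longest annotated transcript and 239 with the median-length coding transcript, a setting chosen after seeing the data, as was the window of 50 bases around starts. The cause of these differences was not tested.

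Replicate numbers did not pair the samples: the correlation of deviations of same-numbered libraries was 0.005, -0.039, 0.059, 0.222 and -0.092, and 1 of 5 libraries correlated best with its own number. With the replicate block, 1 row was called higher and 3 lower, and 3 biogenesis factors were called lower, as they were with the block and the offset.

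Changes near 0 took the other sign under some settings. With library totals the values were 0.05 for Rpl5, 0.07 for Rplp2, Rpl7 and Rpl30, 0.08 for Rplp0 and Rpl11, 0.10 for Rpl7l1, 0.11 for Rplp1 and 0.06 for Rpl36al. With the length and GC offset they were 0.00 for the Rps27 row, 0.01 for Rps29, 0.02 for Rpl7, Rpl30 and Rpl7l1, 0.04 for Rplp0, 0.13 for Rplp1 and 0.06 for Rpl36al. With the offset and the block they were 0.01 for Rps29, 0.02 for Rpl7 and Rpl30, 0.04 for Rplp0, 0.01 for Rpl7l1, 0.12 for Rplp1 and 0.06 for Rpl36al. With TMM without the members they were 0.00 for Rpl7l1 and Rplp1, and the Rpl41 row was at 0.00 with DESeq2, limma-voom, no filter and the block. Over the settings without 1 library, values ranged from -0.06 to 0.00 for Rplp0, -0.04 to 0.01 for Rpl11, -0.01 to 0.06 for Rpl10, -0.03 to 0.04 for Rps4x, -0.02 to 0.03 for Rps15 and for the Rpl41 row, -0.03 to 0.05 for Rpl7l1 and -0.04 to 0.03 for Rplp1. None of these genes was called there.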
